A study of Mus musculus with 6 samples.

Results

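The MHC class I and Qa2 genes of naive CD8 T cells were compared between cells with bright and dim expression of a Nur77-GFP reporter. The set comprised 10 genes chosen by symbol, namely the classical heavy-chain genes H2-K1 and H2-D1, the light-chain gene B2m, the Qa-region genes H2-Q4, H2-Q6, H2-Q7, H2-Q8 and H2-Q9, and the H2-T genes H2-T23 and H2-T22. Of these, 9 were found among the 11162 genes with values, and all 9 passed the filter for testing, a mean of at least 1 RPKM (reads per kilobase of gene, scaled to library size). H2-Q8 was not analysed here. The members were chosen with earlier results of these data known.

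All samples were CD8+ CD44lo CD62Lhi Qa2hi OT-I cells sorted from the spleen of mice with the genotype Nur77-GFP (Tg(Nr4a1-EGFP)GY139Gsat). In this transgene the green fluorescent protein is driven by regulatory sequence of Nr4a1, a gene that T-cell receptor signalling induces. By their labels the groups differed in the reporter gate, with 3 libraries labelled Nur77-GFP-hi and 3 labelled Nur77-GFP-lo, here GFP-hi and GFP-lo. Age, sex and strain background were not given in the sources used here. Nothing in the labels says whether the 3 libraries of a group came from separate mice, so p-values measure the spread between these samples, which may be technical. Surface Qa2 was itself a gate, set high in both groups, so the values describe transcripts within cells already chosen for Qa2 protein.

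MHC class I molecules carry short peptides from inside the cell to its surface, where CD8 T cells and natural killer cells read them. Each consists of a heavy chain bound to the light chain beta-2 microglobulin. The classical heavy chains H-2K and H-2D present peptides to CD8 T cells; the OT-I receptor recognises an ovalbumin peptide on H-2K of the b haplotype. Qa-2 is a nonclassical class I molecule encoded by the near-identical genes H2-Q6 to H2-Q9. It is held in the membrane by a glycosylphosphatidylinositol (GPI) anchor, and its surface level rises as T cells mature after leaving the thymus. Qa-1, from H2-T23, presents leader peptides of other class I chains to the CD94/NKG2 receptors.

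Summed over 4 genes, the H2-Q transcripts were 22.9% lower in GFP-hi than in GFP-lo cells, whereas the classical pair was 9.73% and the H2-T pair 5.30% lower. H2-Q4 and H2-Q6 passed the test, and both fell in GFP-hi. The other 7 did not pass, although all 9 log2 differences were negative. No member was called higher, and none had an unadjusted limma p under 0.05 in that direction. Whether the differences of the H2-Q genes differed from those of the other members was not tested. Across all genes tested, 3.95% were called in either direction, 1.49% lower and 2.46% higher in GFP-hi, and 44.5% had a negative sign.

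**Figure D1:**
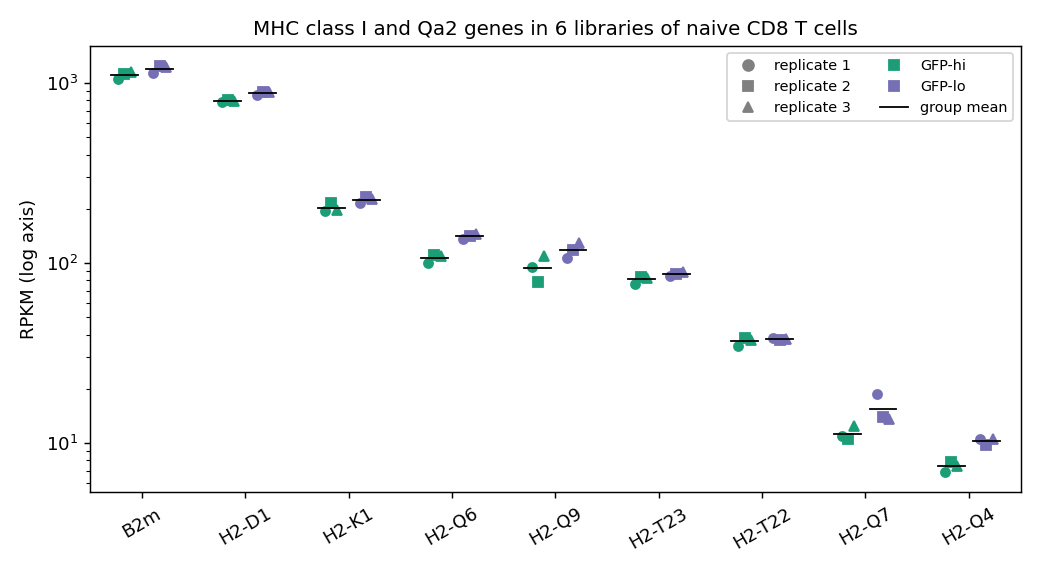
RPKM of the 9 genes in each library, on a log axis, in order of mean level. Green symbols are GFP-hi and violet symbols GFP-lo libraries, symbol shapes are replicates and lines are group means. In H2-D1, H2-K1, H2-Q6, H2-T23, H2-Q7 and H2-Q4 all green symbols lie below all violet ones. In B2m, H2-Q9 and H2-T22 they overlap. Groups separate in this direction were found in 9.84% of all genes tested.

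The depth recovered from the step that 1 read makes in low RPKM values ran from 26170000 to 35940000 reads per library. H2-Q4, the lowest of the 9 genes, thus rested on 197 to 377 reads per kilobase of transcript, a counting error of 5.15% to 7.13%. Copies made by PCR count as reads here, so counting error covers only part of the sampling error. Of 9351 genes tested with limma on log2(RPKM + 1), 369 had an adjusted p under 0.05, 230 higher and 139 lower in GFP-hi. With trimmed mean of M values scaling these were 199 higher and 183 lower. GFP-hi replicate 2 and GFP-lo replicate 2 stood apart by their heat-shock genes, with 1904 and 2133 RPKM of Hspa1b against 344 to 503 RPKM in the other libraries. Where a call below was lost without these 2 libraries, the value without them is given beside it.

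RPKM allows levels to be ordered across genes of different length. Among copies that share reads, the order also depends on how such reads were counted, which is not given. The order was headed by B2m at a mean of 1153 RPKM over the 6 libraries, the highest of all genes tested. H2-D1 followed at 837 RPKM, rank 3 of all genes tested, and H2-K1 at 213 RPKM. H2-Q6 (124 RPKM), H2-Q9 (106 RPKM) and H2-T23 (83.8 RPKM) came next, then H2-T22 (37.3 RPKM), H2-Q7 (13.3 RPKM) and H2-Q4 (8.82 RPKM). The ranges of H2-Q6 and H2-Q9 overlapped, as did those of H2-Q9 and H2-T23, although H2-Q6 exceeded H2-Q9 in 6 of 6 libraries and H2-Q9 exceeded H2-T23 in 5 of 6. The other neighbours in this order had ranges that did not overlap. Per kilobase, the heavy-chain members together gave 118 to 129 RPKM for every 100 RPKM of light chain.

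B2m (Entrez 12010; chr2:122147687-122153082, mm10) encodes the light chain shared by all class I molecules of the set. It had 1046, 1124 and 1145 RPKM in the GFP-hi libraries and 1134, 1239 and 1229 RPKM in the GFP-lo libraries. The groups overlapped, since GFP-hi replicate 3 lay above GFP-lo replicate 1. The log2 difference, the mean log2(RPKM + 1) of GFP-hi minus that of GFP-lo, was -0.12, with SE (standard error) 0.067 and 95% limits of -0.27 and 0.03 (adjusted p = 0.37, limma). B2m thus did not pass the test, and a fall of more than 0.27 on the log2 scale lay outside the interval.

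H2-K1 (Entrez 14972; chr17:33996012-34000619) encodes the heavy chain H-2K. Its RPKM was 194, 215 and 197 in GFP-hi and 216, 232 and 226 in GFP-lo libraries. The groups did not overlap, but GFP-hi replicate 2 and GFP-lo replicate 1 nearly touched. The log2 difference was -0.16 (SE 0.061, adjusted p = 0.21, limma). H2-D1 (Entrez 14964; chr17:35263094-35267497), which encodes H-2D, had 784, 805 and 797 RPKM in GFP-hi against 853, 893 and 893 RPKM in GFP-lo libraries. Its groups were separate, with a log2 difference of -0.15 (SE 0.055, adjusted p = 0.20, limma). The ratio of the pair overlapped between the groups, with 3.75 to 4.05 RPKM of H2-D1 per RPKM of H2-K1 in GFP-hi and 3.84 to 3.96 in GFP-lo.

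Neither classical gene passed the test in that fit. With array quality weights, which let limma count some libraries for less, both did, at log2 differences of -0.20 for H2-K1 (adjusted p = 0.018, limma) and -0.16 for H2-D1 (adjusted p = 0.044, limma). With quantile normalization H2-D1 had -0.01 (adjusted p = 0.98, limma). Reads of close copies bear on these values. Values listed under H2-L, a close relative of H2-D1, ranged from 100 to 243 RPKM, with both extremes in the GFP-lo group. Their log2 difference was -0.06 (adjusted p = 0.94, limma). Whether these reads came from a gene apart from H2-D1 was not tested. When H2-D1 and H2-L were added together, the groups overlapped, at 909, 1012 and 937 RPKM in GFP-hi against 954, 1135 and 1060 RPKM in GFP-lo. The sum of H2-K1 and H2-K2, a second H2-K copy, overlapped as well, at 236 to 275 RPKM against 272 to 295 RPKM. Both sums were chosen after the values had been seen.

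H2-Q6 (Entrez 110557; chr17:35424850-35430055) had the highest mean RPKM of the Qa-2 genes analysed, with a range that overlapped that of H2-Q9. Its RPKM was 99.3, 111 and 110 in the GFP-hi libraries against 136, 142 and 144 in the GFP-lo libraries. The gap between the groups exceeded the spread within either. H2-Q6 fell by 0.40 on the log2 scale (SE 0.061, 95% interval -0.54 to -0.26, adjusted p = 0.013, limma). H2-Q6 no longer passed when GFP-lo replicate 2 was left out (adjusted p = 0.062, limma), without GFP-lo replicate 3 (adjusted p = 0.064, limma) and without both heat-shock-high libraries (adjusted p = 0.069, limma). Its log2 difference stayed between -0.43 and -0.35 in all 17 alternative fits.

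H2-Q4 (Entrez 15015; chr17:35379617-35384674) encodes another nonclassical chain of the Qa region, outside the Qa-2 group. It had 6.91, 7.87 and 7.45 RPKM in GFP-hi against 10.5, 9.75 and 10.5 RPKM in GFP-lo libraries, again without overlap. H2-Q4 fell by 0.42 on the log2 scale (SE 0.064, adjusted p = 0.013, limma), close to the change of H2-Q6 although its level was over 10 times lower. It no longer passed when GFP-hi replicate 1 was left out (adjusted p = 0.053, limma) and without GFP-lo replicate 3 (adjusted p = 0.061, limma). It held without both heat-shock-high libraries, with a log2 difference of -0.49 (adjusted p = 0.043, limma).

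H2-Q7 and H2-Q9, a further pair of Qa-2 genes, had lower means in GFP-hi and wider spread, and did not pass the test. H2-Q7 (Entrez 15018; chr17:35439140-35443773) had 10.9, 10.5 and 12.5 RPKM in GFP-hi against 18.8, 13.9 and 13.6 RPKM in GFP-lo libraries. GFP-lo replicate 1 stood above its group, and without it the log2 difference of -0.41 (SE 0.12, adjusted p = 0.11, limma) was -0.27 (adjusted p = 0.15, limma). With array quality weights it was -0.23 (adjusted p = 0.11, limma). H2-Q9 (Entrez 110558) had 94.5, 78.7 and 109 RPKM in GFP-hi against 106, 119 and 129 RPKM in GFP-lo libraries. Here GFP-hi replicate 3 lay above GFP-lo replicate 1, so the groups overlapped. The log2 difference was -0.33 (SE 0.12, adjusted p = 0.17, limma); leaving out GFP-hi replicate 2 gave -0.21 (adjusted p = 0.29, limma). Array quality weights and the fit without both heat-shock-high libraries likewise gave -0.21.

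**Figure D2:**
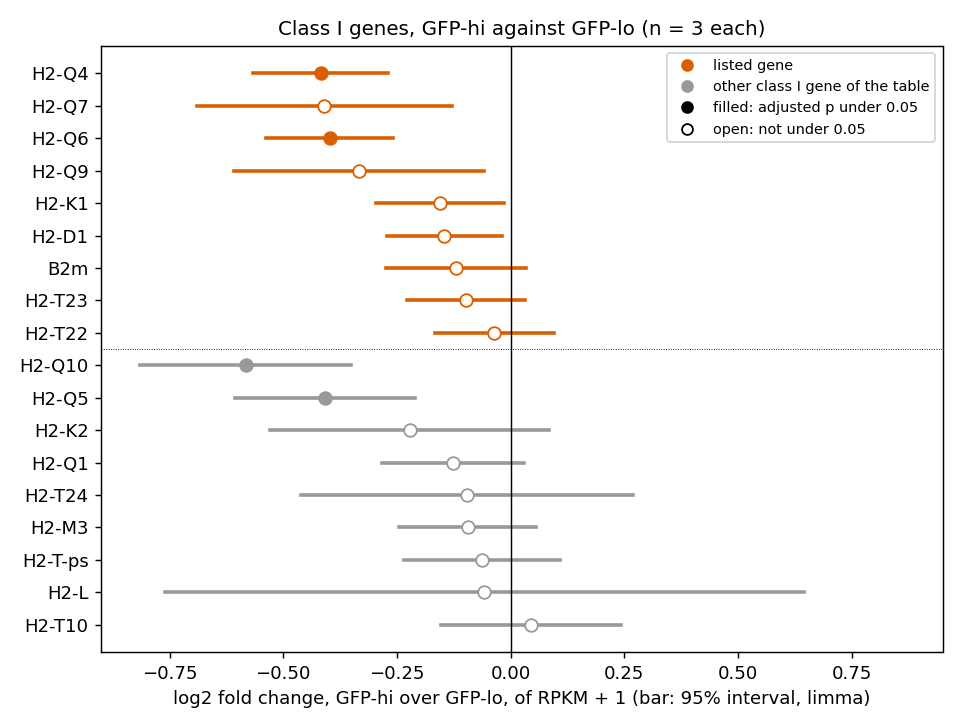
Log2 difference of GFP-hi over GFP-lo with its 95% interval from limma for the 9 genes (orange) and for other class I genes of the table (grey). Filled points had an adjusted p under 0.05; H2-Q4 and H2-Q6 at -0.42 and -0.40 are filled above the dotted line, H2-Q5 and H2-Q10 below it.

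Near-identical copies limit what a value for a single H2-Q gene means. In GENCODE M21 the coding sequences of H2-Q6 and H2-Q7 were identical at 933 of 978 aligned bases, or 95.4%, against 90.2% for H2-Q4 and H2-Q6 and 88.7% for H2-K1 and H2-Q6. Of all 50-base stretches in the coding sequence, 56.3% in H2-Q7 and 36.9% in H2-Q6 also occurred, letter for letter, in a transcript of another gene. For H2-Q7 the main partners among the transcripts searched were H2-Q6 (29.8%) and H2-Q5 (26.02%). Sharing was not confined to H2-Q copies. H2-D1, with a far higher level, held 12.9% of the stretches of H2-Q7, 11.9% of H2-Q6 and 6.61% of H2-Q4. The share was 19.5% in H2-Q4, 24.2% in H2-D1, 12.9% in H2-K1, 29.6% in H2-T23, 43.6% in H2-T22 and 0% in B2m. Transcripts of H2-Q8 and H2-Q9 were not part of this search. Stretches shared only with these copies were thus not counted, and the shares are lower limits. How reads with several matches were counted is not given in the sources used here.

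A sum of the 4 H2-Q genes per library depends less than a single gene on which of the 4 a read was given to. It does not settle reads shared with other genes such as H2-D1. The H2-Q sum was 212, 208 and 238 RPKM in GFP-hi against 272, 284 and 298 RPKM in GFP-lo libraries. Every GFP-hi library lay below every GFP-lo library, with means of 219 ± 16.7 and 284 ± 12.9 RPKM (SD, n = 3 each). The GFP-hi mean was 22.9% lower, and the difference of mean log2 values was -0.38. No p-value is given for the sum, since its members were chosen with results known. It ranged from -0.44 to -0.34 over the alternatives, and was -0.34 without both heat-shock-high libraries. With H2-Q1, H2-Q5 and H2-Q10 added, the sum over all 7 H2-Q genes of the table gave -0.39.

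The share of each gene in this sum was then compared. H2-Q6 made up 46.1% to 53.3% of it in GFP-hi and 48.5% to 50.1% in GFP-lo, and H2-Q9 made up 37.9% to 45.6% and 39.2% to 43.4%. H2-Q7 contributed 5.05% to 5.22% in GFP-hi and 4.56% to 6.91% in GFP-lo, and H2-Q4 between 3.12% and 3.86% in all libraries. The 4 shares overlapped between the groups.

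Within a library, the ratio of H2-Q to classical transcripts does not depend on how libraries are scaled. H2-Q genes gave 21.7, 20.4 and 23.99 RPKM per 100 RPKM of H2-K1 and H2-D1 in GFP-hi, and 25.4, 25.2 and 26.6 in GFP-lo. As a share of all heavy-chain members they made up 16.3%, 15.4% and 17.6% in GFP-hi and 18.6%, 18.5% and 19.3% in GFP-lo. Neither measure overlapped between the groups. Both leave out the values under H2-L and H2-K2, and the separation depends on which copies are counted. H2-L had 140 RPKM in GFP-hi replicate 3 and 243 RPKM in GFP-lo replicate 2. With H2-L added to the classical pair, GFP-hi replicate 3 lies above GFP-lo replicate 2 in the first measure. The sum of H2-K1 and H2-D1 itself was 997 ± 21.1 RPKM in GFP-hi against 1104 ± 30.4 RPKM in GFP-lo (SD, n = 3 each), 9.73% lower in GFP-hi.

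**Figure D3:**
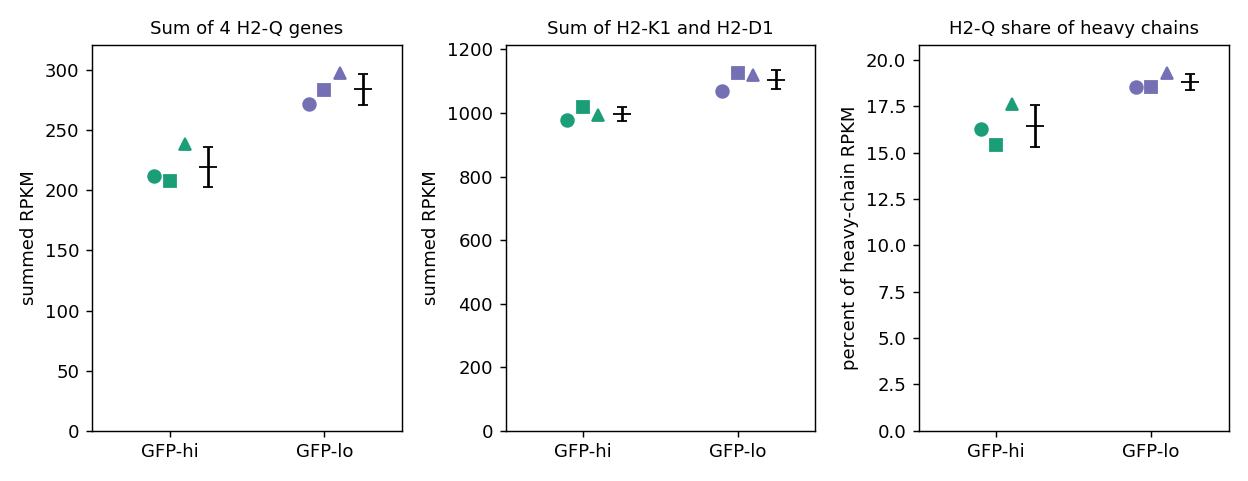
Summed RPKM of 4 H2-Q genes, summed RPKM of H2-K1 and H2-D1, and the H2-Q share of heavy-chain RPKM, per library (symbols, shaped by replicate) with mean and SD (black). In each panel the 3 GFP-hi libraries lie below the 3 GFP-lo libraries, by 22.9%, 9.73% and 12.5% of the GFP-lo mean. H2-L and H2-K2 are not counted.

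The promoters are shown because the H2-Q members had log2 differences from -0.42 to -0.33, and H2-T23 and H2-T22 had -0.10 and -0.04. Printed are the 250 bases before a RefSeq start on GRCm38.p6 (the same assembly as mm10), read 5′ to 3′ along each gene. That start lies inside the gene span given above for H2-Q7 and for H2-K1. The windows of H2-K1 and H2-T23 were searched but are not printed. The 3 H2-Q genes, 1 classical gene, the light chain and the gene with the smallest difference are given. RefSeq windows were matched for 8 of the 9 genes; H2-Q9 was the exception. Capitals mark 4 short motifs searched on both strands, an NF-kappaB-like motif (GGG, then NN, TT, N and CC), an interferon regulatory factor-like motif (AANNGAAA), the CCAAT box (CCAAT) and a cyclic AMP response half-site (TGACG).
H2-Q4 (chr17:35379367-35379616, plus strand): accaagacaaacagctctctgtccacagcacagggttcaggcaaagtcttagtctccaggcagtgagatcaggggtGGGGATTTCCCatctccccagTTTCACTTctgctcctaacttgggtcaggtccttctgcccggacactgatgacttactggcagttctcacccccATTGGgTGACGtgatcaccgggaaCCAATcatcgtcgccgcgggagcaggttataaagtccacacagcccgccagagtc
H2-Q6 (chr17:35424600-35424849, plus strand): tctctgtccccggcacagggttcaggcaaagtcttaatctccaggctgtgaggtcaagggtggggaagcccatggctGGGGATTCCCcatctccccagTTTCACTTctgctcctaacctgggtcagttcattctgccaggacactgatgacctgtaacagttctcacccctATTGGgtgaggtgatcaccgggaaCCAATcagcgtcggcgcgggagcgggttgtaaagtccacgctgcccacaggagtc
H2-Q7 (chr17:35438905-35439154, plus strand): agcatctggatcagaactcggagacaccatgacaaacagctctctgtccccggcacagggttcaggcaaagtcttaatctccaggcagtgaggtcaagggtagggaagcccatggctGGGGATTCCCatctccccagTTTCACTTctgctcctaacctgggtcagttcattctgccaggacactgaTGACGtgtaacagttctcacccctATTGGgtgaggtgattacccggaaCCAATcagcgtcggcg
H2-D1 (chr17:35262844-35263093, plus strand): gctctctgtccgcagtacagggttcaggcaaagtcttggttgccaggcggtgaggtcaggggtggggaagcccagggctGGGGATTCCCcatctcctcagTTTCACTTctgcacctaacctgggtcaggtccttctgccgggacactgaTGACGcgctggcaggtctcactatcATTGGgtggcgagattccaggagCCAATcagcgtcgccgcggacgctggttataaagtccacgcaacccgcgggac
B2m (chr2:122147437-122147686, plus strand): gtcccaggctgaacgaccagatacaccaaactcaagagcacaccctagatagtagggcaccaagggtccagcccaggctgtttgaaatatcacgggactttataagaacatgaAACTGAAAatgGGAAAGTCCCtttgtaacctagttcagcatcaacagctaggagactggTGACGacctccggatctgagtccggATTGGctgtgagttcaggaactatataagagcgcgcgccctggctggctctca
H2-T22 (chr17:36042743-36042992, minus strand): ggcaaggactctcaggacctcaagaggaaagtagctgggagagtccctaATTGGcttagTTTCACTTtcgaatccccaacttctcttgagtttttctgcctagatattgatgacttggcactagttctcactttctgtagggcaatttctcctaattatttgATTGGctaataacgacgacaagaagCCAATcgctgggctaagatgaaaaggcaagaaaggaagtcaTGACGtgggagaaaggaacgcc

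The NF-kappaB-like motif occurred in the windows of H2-Q4, H2-Q6, H2-Q7, H2-D1, H2-K1 and B2m, and no match lay in those of H2-T22 and H2-T23. Of 32536 distinct mouse windows of this length, 4.11% held it. H2-Q6 and H2-Q7 carried it as GGGGATTCCC, the letters also found in H2-D1 and H2-K1, and H2-Q4 held a pair of overlapping matches. The interferon regulatory factor-like motif was present in all 8 windows and in 21.3% of all windows. It read TTTCACTT in the printed orientation in the H2-Q genes, H2-D1, H2-K1 and H2-T22. The CCAAT box was in all 8 windows and in 33.8% of all windows, and TGACG was in 6 of 8, without H2-Q6 and H2-T23, and in 17.9% of all windows. Over 210 aligned bases the windows of H2-Q6 and H2-Q7 were 97.6% identical. Matches of letters describe the windows and do not show that a factor binds there.

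H2-T23 (Entrez 15040; chr17:36029977-36032701), the Qa-1 gene, had 76.4, 83.9 and 82.7 RPKM in GFP-hi against 84.6, 86.4 and 89.1 RPKM in GFP-lo libraries. The groups were separate by less than 1 RPKM. The log2 difference was -0.10 (SE 0.057, adjusted p = 0.39, limma), and -0.06 when GFP-hi replicate 1 was left out. H2-T22 (Entrez 15039; chr17:36037128-36042742), whose product is a ligand of some gamma-delta T-cell receptors, had 34.6, 38.5 and 37.4 RPKM in GFP-hi against 38.1, 37.2 and 37.9 RPKM in GFP-lo. The groups overlapped, with a log2 difference of -0.04 and a 95% interval from -0.17 to 0.09 (adjusted p = 0.79, limma). Its sign was positive without GFP-hi replicate 1, at 0.0084. H2-T10, the closest copy of H2-T22, shared 32.8% of the 50-base stretches and had a log2 difference of 0.04 (adjusted p = 0.82, limma).

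In all, 6 of the 9 genes had groups without overlap and lower values in GFP-hi, as had 9.84% of all genes tested. An unadjusted limma p under 0.05 with lower values was likewise reached by 6 of the 9, against 7.3% of all genes. The median log2 difference of the 9 genes was -0.16, against 0.02 over all genes tested. These counts are descriptions, because the members were not chosen independently of the data and the H2-Q genes can share reads.

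The H2-Q genes lie side by side on chromosome 17, so the tested genes within 250 kb of the start of H2-Q6 were also read from the fit. There were 16, of which 6 were H2-Q genes; H2-Q9 was not placed. Of these 6, 4 were called lower, namely H2-Q4, H2-Q6 and the neighbours H2-Q5 and H2-Q10. Across all genes tested, 1.49% were called lower. H2-Q5 held 13.1% of the 50-base stretches of H2-Q6, and such copies can share reads, so the 4 calls are not independent. H2-Q5, annotated by RefSeq as a transcribed pseudogene, fell by 0.41 on the log2 scale (80.3, 79.5 and 91.5 RPKM against 124, 106 and 104 RPKM, adjusted p = 0.040, limma). H2-Q10, a gene of a secreted class I chain known from liver, fell by 0.58 from a low level (1.11, 0.989 and 1.16 RPKM against 1.89, 1.92 and 2.61 RPKM, adjusted p = 0.020, limma). At so low a level the size depends on the pseudocount, and it was -0.90 with 0.1 in place of 1. H2-Q1, farther away, had a log2 difference of -0.13 (adjusted p = 0.35, limma). The H2-Q5 call was lost in 5 of the 6 fits without 1 library, all but that without GFP-hi replicate 3, with adjusted p values of at most 0.13. The H2-Q10 call was lost in 4, without any of the GFP-hi replicates or without GFP-lo replicate 2, with values of at most 0.072. Without both heat-shock-high libraries the values were 0.16 and 0.11.

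The other 10 tested genes of the window, H2-D1 included, had a median log2 difference of 0.02 and ranged from -0.21 to 0.54. None was called lower, and 1 was called higher, Tcf19, which encodes a transcription factor linked to the cell cycle (log2 difference 0.54, adjusted p = 0.016, limma). Tcf19 lost its call without GFP-hi replicate 1 or 3, without GFP-lo replicate 2 or 3 (limma adjusted p up to 0.072) and without both heat-shock-high libraries (adjusted p = 0.050009, limma). Near the edge of the window, the lymphotoxin beta gene Ltb had a log2 difference of -0.21 (adjusted p = 0.12, limma). The window was chosen after the values had been seen.

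**Figure D4:**
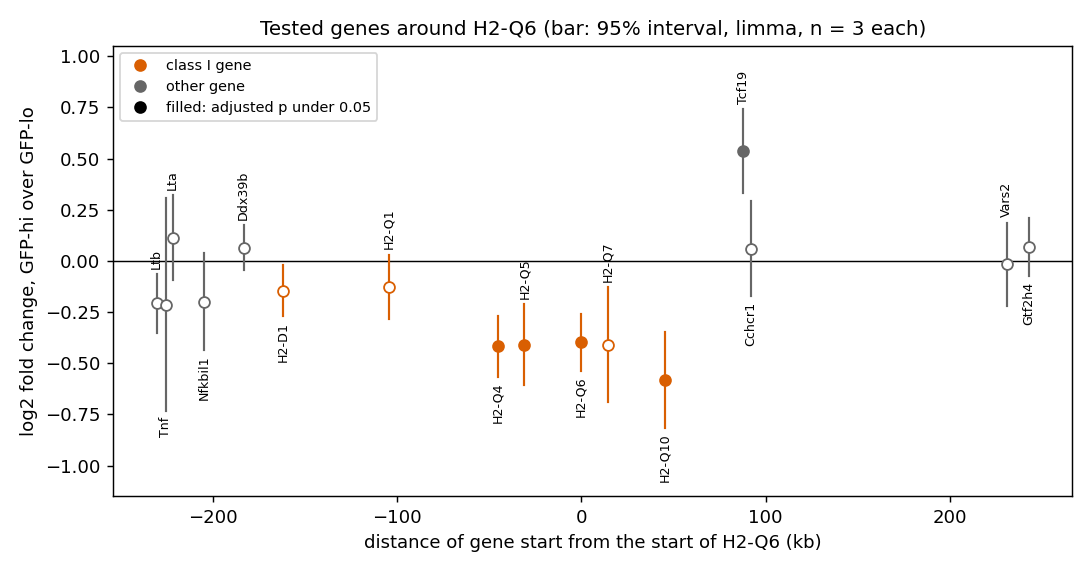
Log2 difference with 95% interval (limma, n = 3 each) of the 16 tested genes within 250 kb of the start of H2-Q6, by distance of their starts in kb; orange marks class I genes and filled points an adjusted p under 0.05. The run from H2-Q4 to H2-Q10 lies between -0.58 and -0.40. The nearest tested genes on either side, H2-Q1 and Tcf19, lie at -0.13 (open) and 0.54 (filled).

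Other class I and class I-like genes were then compared. Of 35 listed genes 14 were tested, and 3 fell, H2-Q5, H2-Q10 and Fcgrt, with none higher. Across all genes tested, 1.49% were called lower. H2-Q5 and H2-Q10 are the neighbours already counted above, and H2-Q5 shares stretches with H2-Q6 and H2-Q7. Fcgrt, which encodes the heavy chain of the neonatal Fc receptor and also pairs with B2m, had 8.31, 8.42 and 8.20 RPKM in GFP-hi against 11.6, 12.9 and 11.2 RPKM in GFP-lo. The groups were far apart for their spread, and Fcgrt fell by 0.47 on the log2 scale (SE 0.064, adjusted p = 0.0079, limma). That call held in all 17 alternative fits. The nonclassical gene H2-M3, which presents formylated peptides, had a log2 difference of -0.09 (adjusted p = 0.48, limma), and H2-K2 of -0.22 (adjusted p = 0.41, limma). The median of the 14 genes was -0.10.

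Genes that load peptides onto class I molecules did not pass the test in either direction. Of 15 peptide-loading and folding genes 0 were called by limma, with a median log2 difference of 0.03. At an unadjusted limma p under 0.05, 2 were higher and 1 lower, against 1202 higher and 683 lower of all 9351 genes tested. Tapbp, encoding tapasin of the loading complex, had -0.07, and the chaperone genes Calr, Pdia3 and Hspa5 had 0.09, 0.10 and 0.05. The peptide transporter genes Tap1 and Tap2, named after their values were seen, had -0.02 (adjusted p = 0.87, limma) and -0.11 (adjusted p = 0.28, limma). Tapbpl, which encodes the peptide editor TAPBPR and was likewise singled out, came closest, with 69.0 to 74.1 RPKM against 82.8 to 86.5 RPKM and -0.22 (adjusted p = 0.060, limma). It passed in 3 of the alternative fits, those with trimmed mean of M values scaling, quantile normalization and array quality weights.

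The proteasome genes, whose products cut class I peptides from proteins, did not pass either. Of 8 immunoproteasome, constitutive and activator genes 0 were called by limma, against 3.95% of all genes tested. At an unadjusted limma p under 0.05, 2 were higher and 0 lower, against 1202 higher and 683 lower of all 9351 genes. The median log2 difference was 0.02. Psmb8, an immunoproteasome subunit, had 65.2, 71.6 and 68.3 RPKM in GFP-hi against 66.6, 68.7 and 70.0 RPKM in GFP-lo libraries. The activator genes Psme1 and Psme2 had log2 differences of 0.02 each, and the constitutive subunit gene Psmb6 had 0.06.

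Among 15 tested transcription regulators of class I genes, 0 were called by limma, against 3.95% of all genes tested. At an unadjusted limma p under 0.05, 1 was higher and 2 lower, against 1202 higher and 683 lower of all 9351 genes. The median was -0.0078. Nlrc5, encoding the class I transactivator, had 44.7, 35.2 and 48.0 RPKM in GFP-hi against 48.1, 42.3 and 48.0 RPKM in GFP-lo, with overlap (log2 difference -0.12, adjusted p = 0.61, limma). Irf1, an interferon regulatory factor, had 55.3, 68.4 and 56.8 RPKM against 76.8, 80.5 and 70.8 RPKM, without overlap, and a log2 difference of -0.34 (adjusted p = 0.083, limma). Rela, encoding the NF-kappaB subunit p65, had 36.2, 37.6 and 36.4 RPKM against 45.0, 41.7 and 42.0 RPKM and -0.22 (adjusted p = 0.065, limma). Irf1 passed with quantile normalization, with array quality weights and without GFP-hi replicate 2 (-0.43, adjusted p = 0.019, limma), and Rela with the 2 former and trimmed mean of M values scaling.

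Of the receptors that bind class I molecules 4 were tested and 1 rose. Cd160, which encodes a receptor for class I and other ligands, had 27.8, 25.1 and 23.96 RPKM in GFP-hi against 13.9, 12.2 and 11.3 RPKM in GFP-lo (log2 difference 0.98, SE 0.086, adjusted p = 0.0014, limma), and was called in all 17 alternative fits. The co-receptor genes Cd8a and Cd8b1 had 0.07 (adjusted p = 0.59, limma) and -0.01 (adjusted p = 0.92, limma), and Klrd1, the CD94 gene, had 0.03 (adjusted p = 0.86, limma). Of 25 tested genes of GPI-anchor synthesis, the anchor of Qa-2, 1 rose and 0 fell by limma. At an unadjusted limma p under 0.05, 4 were higher and 1 lower, and the median was -0.02. Of all 9351 genes tested, 3.95% were called, and 1202 were higher and 683 lower at an unadjusted limma p under 0.05. Pigl, an enzyme of the second step of the pathway, rose by 0.26 on the log2 scale (9.63 to 10.1 RPKM against 7.997 to 8.23 RPKM, adjusted p = 0.035, limma). It lost its call in 5 of the 6 fits without 1 library, all but that without GFP-hi replicate 2 (limma adjusted p up to 0.15), with trimmed mean of M values scaling (0.23, adjusted p = 0.052, limma) and without both heat-shock-high libraries (adjusted p = 0.12, limma). Pigs, a subunit of the transamidase that attaches the anchor, was the most abundant gene of that list and had a log2 difference of 0.03 (adjusted p = 0.81, limma). Pigo, which adds ethanolamine phosphate to the anchor, had -0.09, and Dpm2 and Dpm3, subunits of the enzyme that supplies its mannose donor, had 0.04 and -0.10.

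**Figure D5:**
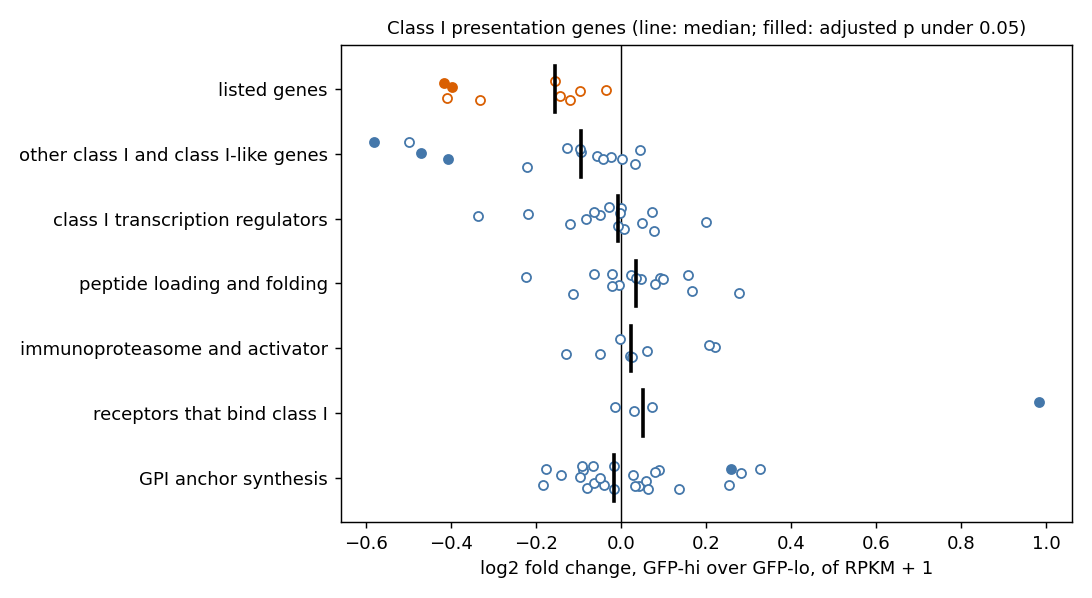
Log2 difference of each tested gene by list, with the median as a black line and filled points for an adjusted p under 0.05. The 9 listed genes all lie left of 0 with a median of -0.16, whereas the loading, proteasome, regulator and GPI lists have medians from -0.02 to 0.03.

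The few genes whose values over the 6 libraries were most like those of the H2-Q genes were found by the root mean square distance between log2(RPKM + 1) values, each gene centred on its own mean. For H2-Q6 these were Ly6e (0.029), Apobec3 (0.036), Donson (0.046), Gbp2 (0.052) and Gm8369 (0.058) among 4236 genes with a mean of at least 10 RPKM, whose median distance was 0.23. For the H2-Q sum they were Apobec3 (0.044), Tlr1 (0.047), Ly6e (0.058), Cd274 (0.064) and Snhg15 (0.064). The genes nearest to H2-K1 were Fxyd5, Tusc2, Btla, Tmem50b and Arl6ip5, at 0.021 to 0.024, and those nearest to B2m were Mtpn, Rpl13, Lcmt2, Rps29 and Hsd11b1, at 0.028 to 0.031. The lists of H2-K1 and B2m shared no gene with those of H2-Q6 and the H2-Q sum. That could hardly come out otherwise, since the distance keeps the size of each gene's group difference. H2-Q6 is also part of the H2-Q sum, so the lists of H2-Q6 and of the sum were not independent.

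The labelled cell type was checked against markers. All 10 naive CD8 T-cell markers were tested, with summed levels of 2458 to 2668 RPKM in GFP-hi against 2588 to 2792 RPKM in GFP-lo, and 1 of them, Il7r, was called lower. Of 11 class II and B-cell markers 6 had values, which summed to 19.4 to 22.1 RPKM in GFP-hi against 18.2 to 20.3 RPKM in GFP-lo, mostly Cd79b and H2-DMa. The class II chain genes H2-Aa, H2-Ab1 and H2-Eb1 and the B-cell gene Cd79a were not analysed here. Of 8 myeloid markers 3 had values, summing to 20.5 to 25.8 RPKM against 20.6 to 22.5 RPKM, of which Cst3 gave the most. Klrk1, the 1 natural killer marker of 4 with a value, had 0.216 to 0.469 RPKM against 0.479 to 0.726 RPKM. Hba-a1, the 1 erythroid marker of 5, had 0.047 to 1.94 RPKM against 0.393 to 1.48 RPKM. The 3 CD4 T-cell markers were not analysed here. In bulk samples, fewer cells of a type and less RNA per cell cannot be told apart.

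Heat-shock and immediate early genes had mostly lower means in GFP-hi as well. Of 9 tested, 8 had a negative sign, against 44.5% of all genes tested. By limma 0 were called, and 1, Junb, was lower at an unadjusted p under 0.05. Their median log2 difference was -0.36, with summed levels of 2078 to 5688 RPKM in GFP-hi against 2834 to 6469 RPKM in GFP-lo. The part of these genes in the class I result was not tested. In the 4 libraries without high heat-shock genes the H2-Q sum differed by -0.34, H2-Q6 by -0.42 and H2-Q4 by -0.49 on the log2 scale.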

How the data were processed

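RNA had been made into libraries with the SMART-seq v4 and Nextera XT kits, per the labels' protocols. STAR and the build mm10 are named in the submitters' processing notes; versions, counter and annotation are not given in the sources used here. The authors deposited RPKM values, 1 column per sample, per the file headers. Genes averaging 1 RPKM or more were tested with limma 3.58.1 (R 4.3.3) on log2(RPKM + 1), lmFit and eBayes with trend, two-sided, without covariates, with Benjamini-Hochberg adjustment over all 9351 genes; the fit was tested on simulated data. Depth was sought as the library size at which low RPKM times transcript length gave whole reads, over 800 genes with 1 GENCODE M21 transcript; 88.9% to 91.1% of the low values then lay within 0.1 of a whole read. Promoters and positions came from RefSeq GRCm38.p6; sequences were aligned with Biopython 1.88. Members and lists were chosen with earlier results of these data known. Named genes were all members and, from each list, those called and the 4 most abundant; the 5 nearest genes in pattern had a mean RPKM of at least 10. Exceptions, chosen after their values were seen, are Tap1, Tap2, Tapbpl, H2-Q1, H2-T10, Tcf19, Ltb and the markers singled out. One gene that this rule names is not reported here.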

Additional observations from a re-analysis of the deposited data

How the results depend on the processing

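No paired analysis was run, because the labels carry no replicate numbers. Those used here follow the order of deposition and name samples only. Variation shared by samples of the same number, as in the heat-shock genes, was thus not removed from the errors. All 17 alternative fits gave negative log2 fold changes for the 9 genes, except H2-T22 without GFP-hi replicate 1 (range without 1 library -0.068 to 0.0084) and B2m with quantile normalization (0, since it holds the same rank in each library). The 369 differing genes became 202 at a mean RPKM of at least 5, 1282 with array quality weights, 101 without both heat-shock-high libraries, and 133 to 315 without 1 library. The share of higher calls was 62.3%, and 52.1% with trimmed mean of M values scaling. The 2 called members became 4 with array quality weights (H2-K1 and H2-D1 added), 1 without both heat-shock-high libraries, and 0 to 2 without 1 library; none remained without GFP-lo replicate 3. The 5 called genes of the other class I lists became 8 with quantile normalization, 16 with array quality weights, 2 without both heat-shock-high libraries, and 2 to 4 without 1 library. The difference of the H2-Q sum moved by less than 1 SD in each alternative run. Fits without 1 or 2 libraries rest on fewer samples; for the other settings the cause was not tested. Adding H2-L to H2-D1 gave -0.14 (limma adjusted p = 0.40), and adding H2-K2 to H2-K1 gave -0.17 (limma adjusted p = 0.24).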

Other observations

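The chains of H2-O, a modulator of class II peptide loading, differed in opposite directions, a result noticed while reading the H2 genes of the table. H2-Ob fell in GFP-hi, with 9.44, 11.7 and 11.03 RPKM against 16.6, 15.5 and 16.3 RPKM (log2 difference -0.55, SE 0.079, adjusted p = 0.0098, limma). H2-Oa rose, with 5.31, 5.86 and 6.03 RPKM against 4.12, 4.14 and 3.85 RPKM (log2 difference 0.42, SE 0.066, adjusted p = 0.014, limma). The groups of both genes were separate. H2-Ob passed in all 17 alternative fits, whereas H2-Oa lost its call when GFP-hi replicate 3 was left out, or either of GFP-lo replicates 2 and 3 (limma adjusted p up to 0.065) and without both heat-shock-high libraries (adjusted p = 0.099, limma). H2-DMa, a chain of the class II loading factor H2-M, had a log2 difference of -0.19 (adjusted p = 0.28, limma), and Cd74, the invariant chain, of 0.10 from a mean of 2.23 RPKM (adjusted p = 0.64, limma).

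Values listed under H2-L varied more between libraries than any of the 9 genes of the set in relative terms. They were 125, 207 and 140 RPKM in GFP-hi against 100, 243 and 167 RPKM in GFP-lo. Whether they belong to a gene apart from H2-D1 was not tested. The highest value of each group was in its replicate 2, the library with high heat-shock genes, and the lowest in replicate 1.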
